A study of Homo sapiens with 12 samples.

Results

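The comparison described here set HEK293T cells that received dCas9-VP160 together with 6 guide RNAs against the CD34 promoter beside HEK293T cells that received no plasmid. Its members were chosen by the labels: the 4 libraries of the group with guides and the 4 libraries of the group without plasmid, 8 of the 12 libraries of the series. All 60604 human gene identifiers of the count table entered, spike-in rows excluded, and 19662 genes had enough counts to be tested. HEK293T is a human embryonic kidney cell line widely used because it takes up plasmids readily. The transfected group carried the vector labelled sgRNA-dCas9-VP160-P2A-EGF with 6 CD34-gRNAs, given with lipofectamine 2000 as 5.4 pmol of plasmid in all for 48 h on a 100 mm dish. For the cells without plasmid the labels differ: the series text calls them non-transfected, while the sample protocol says that they got the reagents with no DNA. A further 4 libraries came from cells given dCas9-VP160 without guides. They are used here as values set side by side and to share the estimate of the spread.

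The work was done in 2 experiments, each on its own batch of cells per the labels, and each experiment gave 2 technical replicates of every group. Counts of technical replicates were summed, so that n = 2 experiments per group. The p-values measure how far the differences between groups varied across the 2 batches of cells, over all 3 groups of the series. A batch difference shared by the groups is taken out by a term for experiment. Only 2 residual degrees of freedom remain per gene, and the fit adds spread shared across genes (median prior degrees of freedom 24). Small p-values therefore rest largely on that shared spread. None of the groups got an empty plasmid. The response to the plasmid, to the dCas9-VP160 protein and to the guides therefore cannot be told apart within this comparison. In bulk RNA, fewer cells with a transcript and less of it per cell cannot be told apart either.

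dCas9 is a Cas9 protein without cutting activity that a guide RNA directs to a matching DNA site, and VP160 is a chain of VP16 activation motifs that recruits the transcription machinery there. CD34 encodes a surface sialomucin known as a marker of blood stem and progenitor cells and of endothelium, and it is hardly transcribed in kidney-derived lines. Foreign DNA and large amounts of a foreign protein are known to touch several cell defences, among them the integrated stress response, in which ATF4 raises genes for amino acid supply, the NF-kB pathway, which drives cytokine genes, and the interferon pathway.

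The 8 libraries held between 7210244 and 11349564 gene counts and showed between 26115 and 28186 genes with at least 1 count. The summed level of 9 genes used here as markers of the line (such as NEFL, VIM and CDH2) was 906 to 981 CPM with guides, where CPM is the count scaled to a library of 1000000 counts, and 828 to 911 CPM without plasmid. The haematopoietic markers PTPRC, SPI1, GATA1 and TAL1 and the endothelial markers PECAM1, CDH5 and TEK had a mean of 0.405 CPM or less in both groups. The other markers of these kinds were present at low levels, RUNX1 at 4.74 CPM with guides and 5.14 CPM without plasmid, KDR at 0.895 and 1.42 CPM and VWF at 2.52 and 1.29 CPM. Spike-in counts made up 0.719% and 0.404% of the 2 no-plasmid libraries of experiment 1 and at most 0.00818% of the others. They were excluded from library sizes, and their part in the results was not tested.

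CD34 (ENSG00000174059) was the gene with the largest rise among genes at a mean of at least 5 CPM. It lies on the minus strand of chromosome 1, at 207880972 to 207911402 in GRCh38. Without plasmid it gave 1.52 and 2.47 CPM in experiment 1 and 1.61 and 2.42 CPM in experiment 2, from 13, 28, 14 and 26 counts. With guides it gave 107 and 97.5 CPM in experiment 1 and 97.9 and 94.5 CPM in experiment 2. All 4 libraries with guides stood far above all 4 without plasmid, and the technical replicates differed little beside that gap. The summed libraries averaged 99.3 ± 4.2 CPM (SD, n = 2) with guides, and the log2 fold change was 5.59 ± 0.10 (SE; edgeR quasi-likelihood test, Benjamini-Hochberg adjusted p = 1.13e-24). It was 5.56 in experiment 1 and 5.48 in experiment 2. From the libraries labelled replicate 1 alone it was 6.02 and from those labelled replicate 2 alone 5.29, a difference of -0.73 that did not pass its own test (edgeR adjusted p = 0.516). The libraries with dCas9-VP160 and no guides held 0.774 to 1.02 CPM, under every no-plasmid library.

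**Figure D1:**
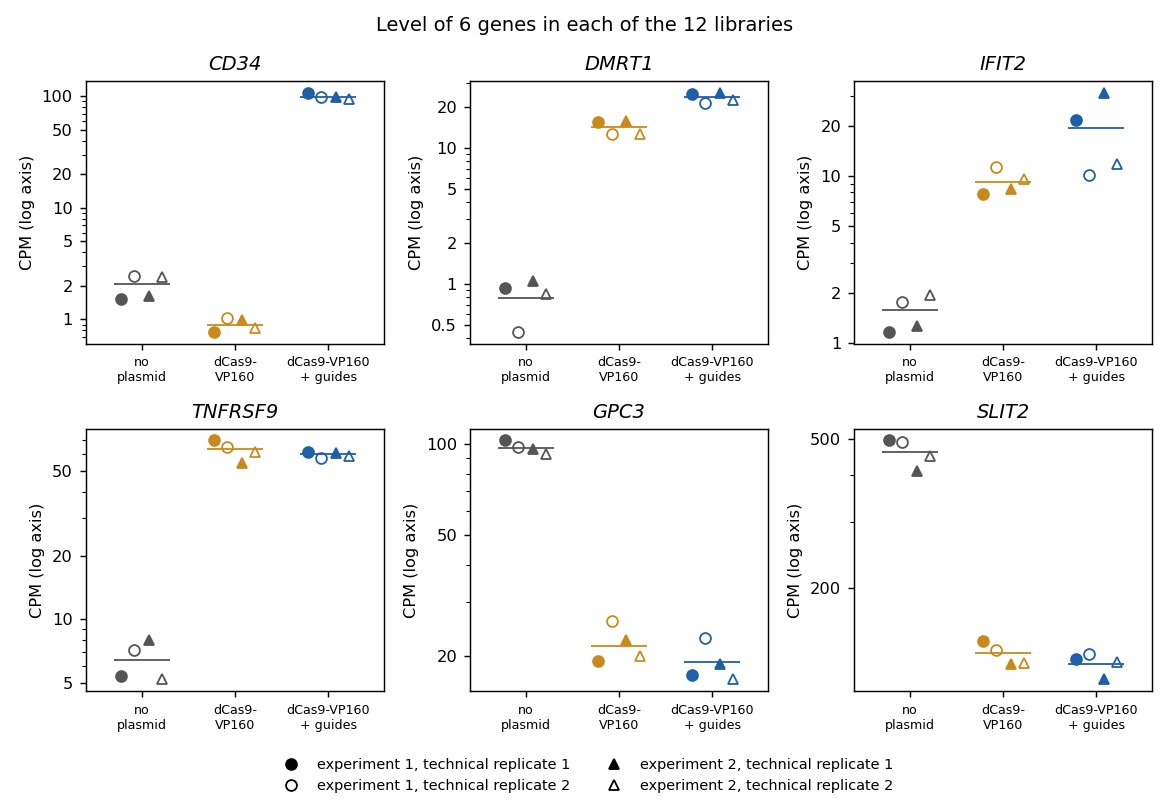
CPM on a log axis for CD34, DMRT1, IFIT2, TNFRSF9, GPC3 and SLIT2 in each of the 12 libraries. Circles are experiment 1 and triangles experiment 2, filled for technical replicate 1 and open for technical replicate 2, and the line is the mean of the summed libraries of 2 experiments. The libraries with guides hold 94.5 to 107 CPM of CD34 against 1.52 to 2.47 CPM without plasmid, and the groups with guides and without plasmid do not overlap for any of the 6 genes.

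The genes around CD34 did not share its rise. Of 13 other genes annotated within 500 kb, 6 had enough counts to be tested. CD46, a complement regulator at 138 to 164 CPM in all 8 libraries, had a log2 fold change of -0.08 and was not called. CR1L had -0.33 and was not called. CD55, another complement regulator, changed by 0.15, and the complement receptor CR2 by 0.63, from 1.27 to 3.39 CPM without plasmid to 2.49 to 4.27 CPM with guides. Both genes had overlapping libraries and lost their calls when single libraries were left out. MIR29B2CHG, the host transcript of a pair of microRNAs whose annotated end lies 1.88 kb from CD34, changed by -0.84 at a level of at most 2.39 CPM, with overlapping libraries and a call that was also lost without single libraries. PLXNA2, a semaphorin receptor, fell from 26.7 to 34.7 CPM without plasmid to 12.6 to 21.5 CPM with guides, a log2 fold change of -0.85 ± 0.09 (SE).

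Across the transcriptome the response was broad and mostly small. At an adjusted p under 0.05, 5245 genes were higher with guides (26.7% of the 19662 tested) and 5102 were lower (25.9%), so that 52.6% were called in either direction. The median absolute log2 fold change of the called genes was 0.453, and 55.4% of them changed by less than 0.5. A rise of at least 1 on the log2 scale was called for 806 genes and a fall of that size for 761. Larger changes were mostly rises, with 196 genes up and 55 down by at least 2, and 56 up and 6 down by at least 3. Where each gene was tested against a log2 fold change of 1 in place of 0, a test chosen after seeing the data, 223 genes were higher (1.13%) and 93 lower (0.473%). The median over all genes tested was -0.0158, and this median with the shares of 26.7% higher and 25.9% lower is the background for every list below. That background varied with level. Of 2440 genes over 100 CPM, 1153 were higher and 716 lower, with a median of 0.0797. Of 2747 genes under 1 CPM, 305 were higher and 269 lower, with a median of -0.0403. The lists were not matched for level.

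**Figure D2:**
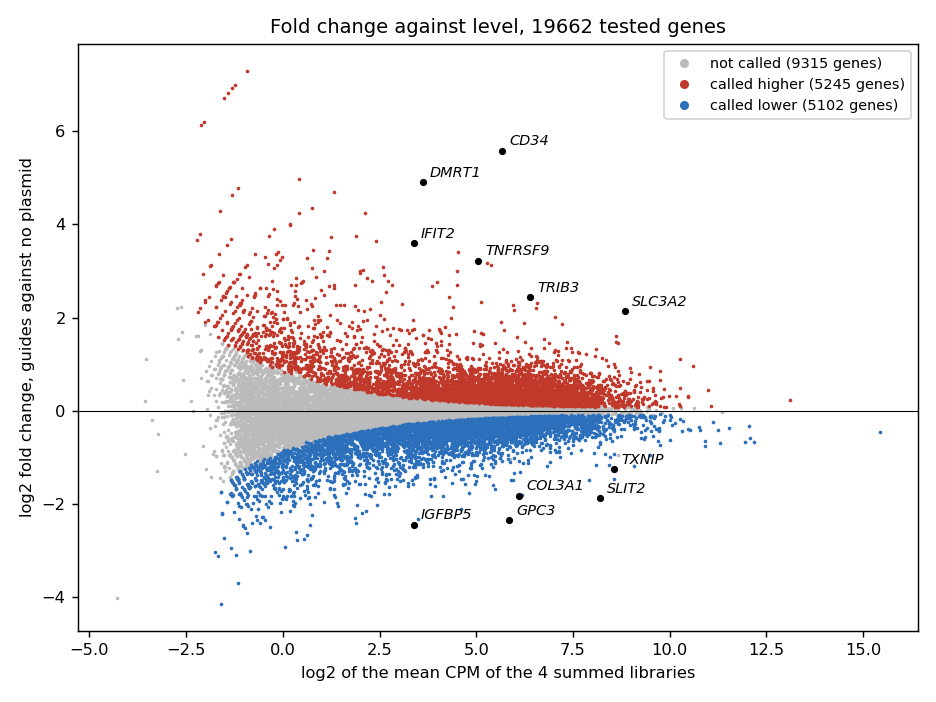
Log2 fold change with guides against no plasmid for 19662 tested genes, against the log2 of their mean CPM over the 4 summed libraries. Red marks the 5245 genes called higher, blue the 5102 called lower and grey the rest, and CD34 and DMRT1 stand above all other genes of their level.

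The pair of experiments gave nearly the same fold changes. Over 12860 genes with a mean of at least 5 CPM, the log2 fold changes of experiments 1 and 2 had a Pearson correlation of 0.927 across genes, which are not independent replicates, and the SD of their difference was 0.175. Of the 10347 genes called, 10341 had the same direction in both experiments. The calls were made from these same experiments, so this agreement is largely set by the choice of genes and is no separate support. A test of the difference between experiments, run on the single libraries, called 0 of 17975 genes, with 689 at an unadjusted p under 0.05. Its smallest adjusted p was 0.0593 (edgeR quasi-likelihood test), shared by KIFC1, PPP1R8 and PLCG1. Technical replicates within an experiment share their cells, so this test rests on technical spread and not on that of separate cultures. Technical spread was largest with guides, where replicate pairs had a chi-square per degree of freedom of 4.04 and 2.86. Without plasmid it was 1.88 and 2.76. The test held no term for replicate number, so 0 calls do not show that the responses were equal.

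**Figure D3:**
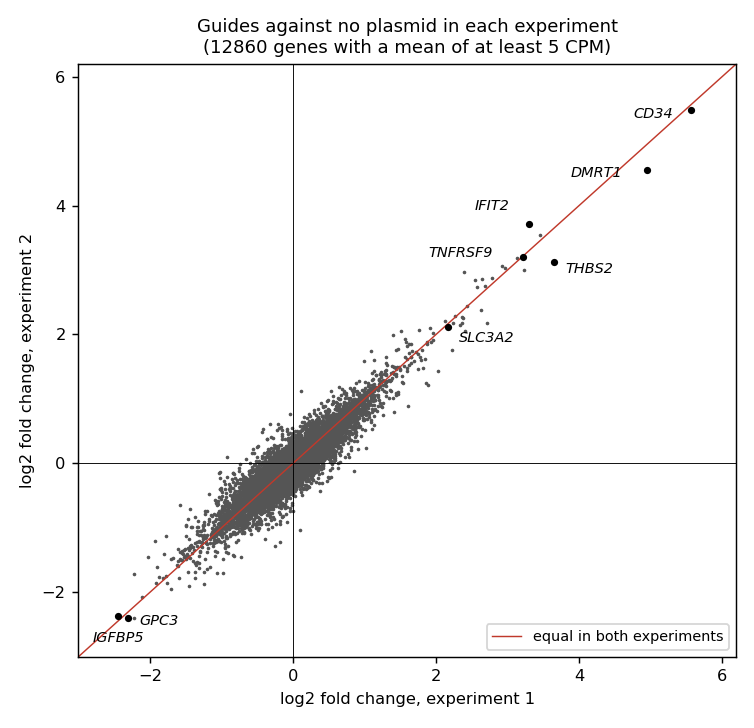
Log2 fold change in experiment 2 against that in experiment 1 for 12860 genes with a mean of at least 5 CPM, with the line of equal values. CD34, DMRT1, TNFRSF9 and SLC3A2 lie on or near the line at the upper end and IGFBP5 and GPC3 at the lower end.

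The authors' deposited table gives 97 genes with values for this comparison and for dCas9-VP160 alone, and how the 97 were chosen is not stated. In this comparison it has 77 higher and 20 lower with guides, the smallest absolute log2 fold change being 1.19. Its statistics equal the log2 fold change less 1 in absolute size, divided by its standard error, within a tolerance of 1e-06 for all 97 genes. All 97 were called here in the same direction, also when tested against 1, where 223 genes were higher and 93 lower in all. The deposited table rests on the same libraries, so this match is no separate support. CD34 is not one of the 97 genes in the authors' deposited table. The fold changes of the authors' deposited table and of the present fit differed by at most 0.176, with a median difference of 0.0209.

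Among called genes at a mean of at least 5 CPM, the largest rises after CD34 belonged to genes of unlike function. Genes under that level could have larger values, such as SCG2 with a log2 fold change of 4.99. DMRT1, a transcription factor of testis development, was at 0.442 to 1.04 CPM without plasmid and at 21.4 to 25.5 CPM with guides. Its log2 fold change was 4.90 ± 0.17 (SE; edgeR adjusted p = 7.8e-19), against 4.17 for dCas9-VP160 without guides on the same control libraries. The groups were far apart in every library. CYP4F3, a leukotriene hydroxylase, rose by 3.65 ± 0.21 (SE) from 0.372 to 1.24 CPM to 6.26 to 14.6 CPM. THBS2, a matricellular thrombospondin, rose by 3.40 ± 0.12 (SE) to 40.3 to 45 CPM, and ABCA12, a lipid transporter of skin, by 3.10 ± 0.18 (SE). GPNMB, a glycoprotein of lysosomes and melanosomes, stood at 8.13 to 9.4 CPM without plasmid and at 71.5 to 83.9 CPM with guides, a log2 fold change of 3.13 ± 0.08 (SE). TAC1, the precursor of substance P, rose by 2.91, BEX1, a brain-expressed adaptor, by 2.79, and PLA2G4C, a cytosolic phospholipase, by 2.77. DNAH17, an axonemal dynein heavy chain, rose by 3.17 to 60.5 to 80.9 CPM. RFPL4A, a gene with near-identical neighbours, rose by 2.71, and its value is uncertain because reads can be shared among copies. Overlapping and antisense genes are uncertain too, because the series text calls the assay dirRNAseq, which may mean a directional one, while the library kits in the labels do not mark strand, and the strand setting of the counting is unknown.

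IFIT2, an antiviral protein of the interferon response, rose by 3.60 ± 0.17 (SE), but its technical replicates disagreed. Without plasmid it was at 1.17 to 1.95 CPM in all 4 libraries. With guides, the libraries labelled replicate 1 held 21.5 and 31.4 CPM and those labelled replicate 2 held 10.1 and 11.8 CPM. The log2 fold change was 4.43 from the libraries labelled replicate 1 and 2.54 from those labelled replicate 2, and this difference passed its own test (-1.87, edgeR adjusted p = 0.0174). Without plasmid the order was the opposite, with 1.17 and 1.27 CPM in replicate 1 and 1.77 and 1.95 CPM in replicate 2.

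Among the 14 largest falls at a mean of at least 5 CPM were secreted and matrix proteins and regulators of growth. IGFBP5, which binds insulin-like growth factors outside the cell, fell from 17.1 to 18.2 CPM to 2.72 to 3.42 CPM, a log2 fold change of -2.45 ± 0.13 (SE; edgeR adjusted p = 2.61e-14). GPC3, a heparan sulfate proteoglycan, fell from 93 to 103 CPM to 16.7 to 22.8 CPM, a log2 fold change of -2.35 ± 0.07 (SE). In both genes every library with guides lay under every library without plasmid. PCK1, the gluconeogenic enzyme of liver and kidney, fell by 2.33 on the log2 scale, the protease ADAMTS5 fell by 2.01 and the hyaluronan synthase HAS2 fell by 1.74. ZNF503, a zinc finger repressor, fell by 1.84, NREP, a regulator of neuronal regeneration, fell by 1.80, SCUBE1, a secreted surface glycoprotein, fell by 1.78 and GAS1, a hedgehog co-receptor, fell by 1.76. The antisense transcript KLRK1-AS1 (-2.11), the long noncoding LINC02603 (-1.79) and the histone gene H3Y1 (-1.82) were the others with SLIT2 and COL3A1, and the first and the last of these 3 may share reads with overlapping or near-identical genes. For 134 of the 147 genes named by the rule for large changes and list members, the 4 libraries with guides did not overlap the 4 without plasmid. These genes were chosen for large changes, so this is a description of them; over all 19662 genes tested the groups did not overlap for 38.9%, and 52.6% were called.

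**Figure D4:**
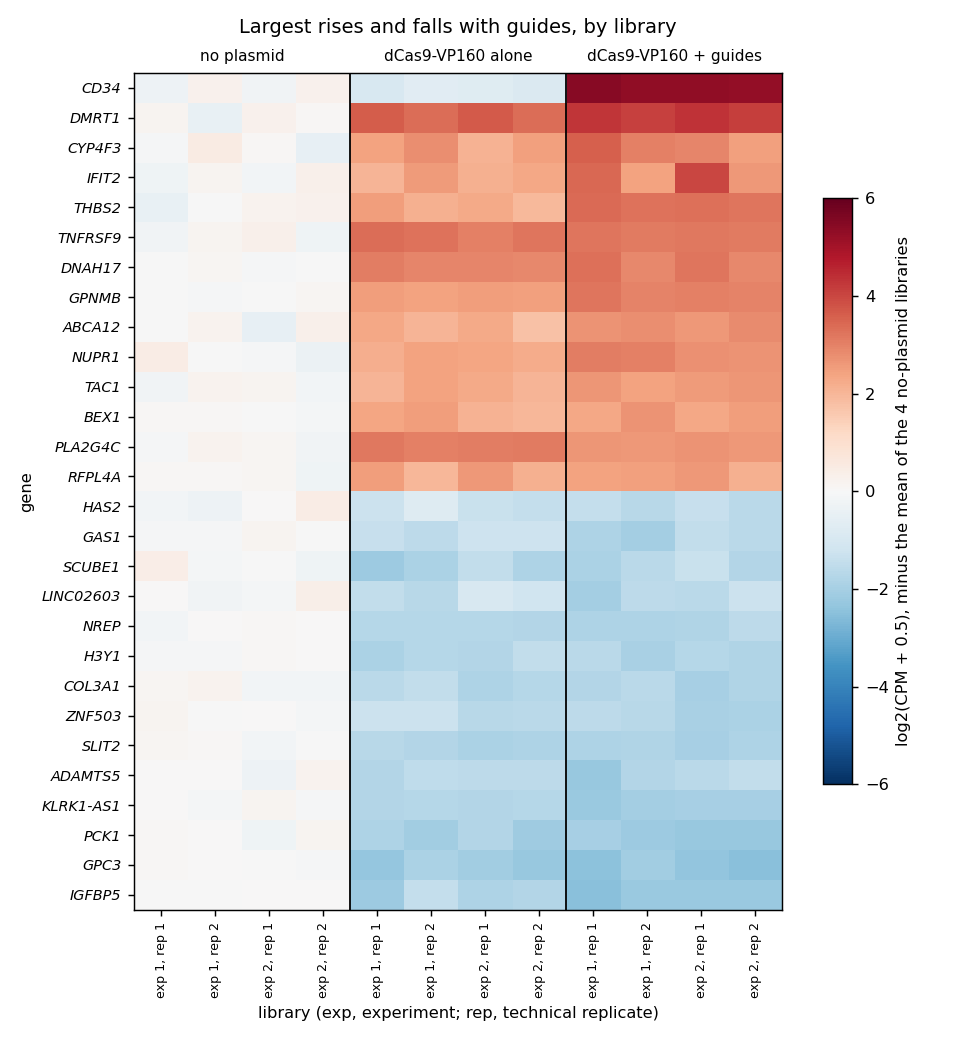
Heat map of the 14 largest rises and 14 largest falls at a mean of at least 5 CPM (rows) in the 12 libraries (columns). Values are log2(CPM + 0.5) minus the mean of the 4 no-plasmid libraries, red for higher and blue for lower. The 4 columns with guides are red for all 14 rises and blue for all 14 falls, and CD34 is dark red in the columns with guides and near white or pale blue in all others.

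Only a pair of genes went from at most 3 counts in all 4 no-plasmid libraries together to a mean of at least 1 CPM with guides. SCG2, a secretogranin of neuroendocrine granules, had 3 counts without plasmid and 90 with guides, a ratio of 34.5 (95% counting interval 11.4 to 171). FOLR3, a secreted folate receptor, had 0 counts without plasmid and 36 with guides, at least 13.8-fold higher against a floor of 3 counts over the group. Cells with dCas9-VP160 alone held 205 counts of SCG2 and 25 of FOLR3. These intervals and floors cover counting error only.

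The genes of amino acid supply under ATF4 were mostly higher with guides than without plasmid. Of 29 tested genes of the ATF4 and integrated stress response list, 23 rose and 3 fell, with a median log2 fold change of 1.0. With dCas9-VP160 alone, on the same control libraries, this list had a median of 0.87. There the medians were also 0.6 for tRNA synthetases, 1.3 for cytokines and -0.51 for neurite guidance, against 0.66, 1.0 and -0.59 with guides. Mitochondrially encoded genes differed more, with -0.74 against -0.43. What the guides added to any list was not tested. ATF4 itself, the transcription factor of the pathway, rose by 0.69 ± 0.04 (SE) from 118 to 145 CPM to 202 to 231 CPM. TRIB3, a pseudokinase that restrains the response, stood at 23.1 to 28.7 CPM without plasmid and at 122 to 157 CPM with guides, a log2 fold change of 2.44 ± 0.06 (SE; edgeR adjusted p = 4.38e-22). DDIT3, which encodes the stress factor CHOP, rose by 2.32 ± 0.05 (SE) from 29.9 to 35.7 CPM to 147 to 167 CPM. NUPR1, a small stress-induced nuclear protein, rose by 3.01, CHAC1, which degrades glutathione, by 2.17 and PPP1R15A, which brings about dephosphorylation of eIF2, by 1.87. The 3 that fell were TXNIP, VLDLR (-0.68), a lipoprotein receptor, and DDIT4 (-0.18), an inhibitor of mTOR. TXNIP, an inhibitor of thioredoxin and of glucose uptake, fell by 1.26 on the log2 scale from 512 to 559 CPM to 210 to 246 CPM.

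Most transporter and enzyme genes rose too, but these lists share members with the ATF4 list, such as SLC7A11 and ASNS. Of 22 amino acid transporter genes, 15 rose and 5 fell, with a median of 0.63. SLC7A11, the cystine/glutamate exchanger, rose by 2.71 ± 0.10 (SE), and SLC3A2, the shared heavy chain of several exchangers, rose by 2.14 ± 0.04 (SE) from 159 to 175 CPM to 665 to 842 CPM. The glutamate transporter SLC1A1 went the other way, with -0.86. Of 21 genes of amino acid and folate-linked carbon synthesis, 15 rose and 4 fell, with a median of 0.56. ALDH1L2 of the mitochondrial folate pathway rose by 1.67, the asparagine synthetase ASNS by 1.46 and the serine pathway enzyme PSAT1 by 1.24, while the glutamine synthetase GLUL fell by 0.64 on the log2 scale. Of the 20 aminoacyl tRNA synthetases, which load amino acids onto their tRNAs, 18 rose, with SARS1 highest at 1.61, and QARS1 alone fell (-0.60). These 20 genes took 0.579% ± 0.013 of all gene counts with guides and 0.349% ± 0.012 without plasmid (SD, n = 2).

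The letters TGATGNAA, the composite element that C/EBP and ATF factors bind, were searched on both strands in the 250 bases before each RefSeq start (GRCh38.p14), and 12888 of the 19662 tested genes had such a sequence. The motif was chosen after the fold changes were known. It was in 322 of all these promoters (2.5%), in 22 of 482 promoters of genes called higher by at least 1 (4.56%) and in 8 of 346 of those called lower by at least 1 (2.31%). Among the lists it was in 6 of 24 promoters of the ATF4 list (25%) and 3 of 16 of the tRNA synthetases (18.8%). The shares of the lists depend on which genes were put in them and not on the fold changes measured here. A match is a description of these letters and not a site shown to be bound. The following 30-base stretches from genes that rose are shown because they carry the element, written 5′ to 3′ in the sense of the gene with the motif, or its reverse complement, in capitals.
ASNS: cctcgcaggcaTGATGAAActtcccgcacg
CEBPG: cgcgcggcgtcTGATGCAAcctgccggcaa
CHAC1: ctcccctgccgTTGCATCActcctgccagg
HERPUD1: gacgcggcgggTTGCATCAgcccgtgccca
AARS1: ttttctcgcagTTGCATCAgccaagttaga
GARS1: ttacgcggcgaTTTCATCAtgctccgagcc

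They lie at chr7:97872458-97872487 (ASNS, minus strand), chr19:33374060-33374089 (CEBPG, plus), chr15:40953251-40953280 (CHAC1, plus), chr16:56931955-56931984 (HERPUD1, plus), chr16:70289675-70289704 (AARS1, minus) and chr7:30594834-30594863 (GARS1, plus). The motif in ASNS begins 68 bases before the start and that in CHAC1 209 bases before it. ASNS rose by 1.46, CEBPG, a C/EBP partner of ATF4, by 1.47, CHAC1 by 2.17 and HERPUD1, a gene of endoplasmic reticulum degradation, by 1.06. The tRNA synthetases AARS1 and GARS1 rose by 1.14 and 0.96. Sequence of NUPR1 was not used here.

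Genes of the NF-kB pathway rose, led by its alternative branch and its feedback regulators. Of 26 tested subunits, kinases and inhibitors, 18 rose and 2 fell, with a median of 0.35. RELB, the partner subunit of the alternative branch, was at 2.79 to 5.73 CPM without plasmid and 23.1 to 27.4 CPM with guides, a log2 fold change of 2.67 ± 0.12 (SE; edgeR adjusted p = 5.95e-16). NFKB2, its precursor subunit, rose by 1.79, the inhibitor NFKBIB by 1.31, the ubiquitin ligase BIRC3 by 1.43 and the deubiquitinase TNFAIP3 by 0.96. The subunits of the classical branch moved less, with 0.49 for NFKB1 and 0.31 for RELA. With dCas9-VP160 alone, on the same control libraries, RELB had 3.26 and NFKB2 2.58.

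Cytokine and TNF receptor genes rose as well, mostly from low levels. Of 24 tested cytokine and chemokine genes, 17 rose and 1 fell, with a median of 1.0. IL32, a proinflammatory cytokine, was the most abundant of those named, at 19.9 to 24.2 CPM without plasmid and 98.4 to 110 CPM with guides (log2 fold change 2.17 ± 0.06, SE). The neutrophil chemokine CXCL8 rose by 1.97 from 2.03 to 3.23 CPM to 7.1 to 13.2 CPM, and EBI3, a subunit of interleukin-27 and interleukin-35, rose by 2.15. CCL5 was listed with 4 counts over all 4 no-plasmid libraries. With guides it was at 1.25 and 0.772 CPM in the libraries labelled replicate 1 and at 0.43 and 0.142 CPM in those labelled replicate 2. IL11 rose by 2.57, with 3.81 from the libraries labelled replicate 1 and 1.78 from those labelled replicate 2. LTB, a lymphotoxin subunit under 1 CPM, had -1.35 with overlapping libraries, and this call was lost without the no-plasmid library of experiment 2, replicate 1, the guides library of experiment 1, replicate 1, or that of experiment 2, replicate 2. Of 19 tested TNF receptor genes, 10 rose and 4 fell, with a median of 0.41. TNFRSF9, the costimulatory receptor 4-1BB, led them, at 5.21 to 7.95 CPM without plasmid and 57.9 to 61.8 CPM with guides, a log2 fold change of 3.23 ± 0.09 (SE). TNFRSF12A, the receptor of TWEAK, rose by 1.65 and the death receptor FAS by 0.97.

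The letters GGGNNTTTCC, a kappa B element, were searched in the same way, and they share no overlap with the letters of the ATF motif. They were in 327 of 12888 promoters (2.54%), in 19 of 482 of genes called higher by at least 1 (3.94%) and in 5 of 346 of genes called lower by at least 1 (1.45%). They were in 11 of 23 promoters of the NF-kB list (47.8%), in 6 of 16 of the cytokine list (37.5%) and in 1 of 11 of the TNF receptor list (9.09%). As above, the shares of the lists depend on the genes put in them and not on the fold changes. Stretches of 30 bases are shown for the most strongly raised members of these lists that hold the element, and for REL and CCL20, which hold it and were not called.
TNFRSF9: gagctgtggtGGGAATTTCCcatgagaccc
IL32: cctgtactcaGGGAGTTTCCccagccagct
CXCL3: ctggagctccGGGAATTTCCctggcccggc
NFKB2: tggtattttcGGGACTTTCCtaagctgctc
BIRC3: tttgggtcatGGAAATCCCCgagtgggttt
NFKBIB: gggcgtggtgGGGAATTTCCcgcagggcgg
REL: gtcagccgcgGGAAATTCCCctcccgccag
CCL20: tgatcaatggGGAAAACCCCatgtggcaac

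They lie at chr1:7940894-7940923 (TNFRSF9, minus strand), chr16:3065294-3065323 (IL32, plus), chr4:74038749-74038778 (CXCL3, minus), chr10:102395674-102395703 (NFKB2, plus), chr11:102317275-102317304 (BIRC3, plus), chr19:38899931-38899960 (NFKBIB, plus), chr2:60881518-60881547 (REL, plus) and chr2:227813753-227813782 (CCL20, plus). The capitals mark the motif or its reverse complement, as above. CXCL3 rose by 1.88 at no more than 2.21 CPM. REL had a log2 fold change of 0.03 and CCL20 of -0.15. The promoter of LTB holds the element as well, and LTB had -1.35, a call lost without single libraries, as stated above. A match thus went with genes higher and uncalled, and with this unsteady lower call. Sequence of RELB was not used here.

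Interferon-stimulated genes split. Of 43 tested, 15 rose and 15 fell, with a median of -0.036, so this list as a whole did not follow IFIT2. ISG15, a ubiquitin-like modifier, rose by 1.75 ± 0.14 (SE) from 3.16 to 4.68 CPM to 11 to 14.7 CPM. IRF1, a transcription factor that NF-kB also drives, rose by 1.08 and IRF7 by 1.08. IFIT3 rose by 1.71, with 2.36 from the libraries labelled replicate 1 and 0.96 from those labelled replicate 2. OASL, an antiviral synthetase relative, had 2 counts without plasmid and between 0.215 and 1.13 CPM with guides. The members that fell included IFI44L (-1.36), the tetherin gene BST2 (-0.78), IFIT1 (-0.71) and STAT2 (-0.65), a subunit of the factor that answers type I interferon. Of 13 sensors of foreign nucleic acid and their adaptors, 6 rose and 2 fell, with a median of 0.23. TLR3, a receptor of double-stranded RNA, rose by 1.74, RIGI, a sensor of viral RNA, by 0.72, and IRF3 by 0.51.

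Antigen presentation by MHC class I leaned upward, with 13 of 19 genes higher, 1 lower and a median of 0.32. TAP1, which carries peptides into the endoplasmic reticulum, rose by 1.58 ± 0.06 (SE) from 30.4 to 38.2 CPM to 87.4 to 116 CPM. PSMB9, an immunoproteasome subunit, rose by 2.67 from 0.611 ± 0.15 to 3.95 ± 0.65 CPM (SD, n = 2). HLA-B rose by 0.62, and values of HLA genes are uncertain because their sequences are alike. PSME1, a proteasome activator subunit, had -0.16 with overlapping libraries and lost its call when the no-plasmid or the guides library of experiment 1, replicate 1, was left out.

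Genes of protein folding in the endoplasmic reticulum rose in number but by less. Of 27 tested genes of the unfolded protein response, 22 rose and 1, WFS1, had a call downward (-0.16) that most alternatives did not keep, with a median of 0.38. XBP1, a transcription factor of this response, rose by 1.48 ± 0.04 (SE) from 196 to 214 CPM to 540 to 620 CPM. SELENOS, a protein of the degradation complex, rose by 1.11, the lectin chaperone CANX by 0.97 and the chaperone HSPA5, known as BiP, by 0.85. Of 27 cytosolic chaperone genes, 13 rose and 5 fell, with a median of 0.16. HSPB8, a small heat shock protein, rose by 1.29, HSPA4L by 0.84 and HSPH1 by 0.77, while HSPA8, the constitutive HSP70, fell by 0.36 on the log2 scale. HSPA1A, the stress-induced HSP70, had -1.19 at 0.632 ± 0.28 CPM against 1.47 ± 0.12 CPM (SD, n = 2), with overlapping libraries and a call lost without the libraries labelled replicate 1.

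More genes rose than fell in the NRF2, lysosome and proteasome lists, most by small amounts. Among all tested genes over 100 CPM more rose than fell as well, 1153 against 716 of 2440. Of 27 genes of the NRF2 and glutathione list, 12 rose and 4 fell, with a median of 0.082. HMOX1, which breaks down haem, rose by 1.66, SQSTM1, an autophagy receptor, by 1.32 and FTL, the ferritin light chain, by 1.12. Of 36 lysosome and autophagy genes, 25 rose and 6 fell, with a median of 0.21. GPNMB led them, followed by SQSTM1 and by TFE3 with 0.93 and LAMP1 with 0.71. Of 31 proteasome subunits, 18 rose and 4 fell, with a median of 0.17, PSMC2 and PSMC4 highest at 0.64 and PSMA2 lowest at -0.68.

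Immediate early genes of the AP-1 and EGR families were higher in part. Of 34 tested, 17 rose and 5 fell, with a median of 0.43. FOS rose by 2.29 ± 0.14 (SE) from 2.42 to 3.26 CPM to 10.5 to 18 CPM, FOSL1 by 1.75, EGR1 by 1.74 and JUNB by 1.45. JUN did not rise with them, with log2 fold changes of -0.38 to -0.27 over the settings used. SPRY4, a feedback inhibitor of receptor tyrosine kinase signalling, rose by 1.99, with 3.09 and 1.57 from the libraries labelled replicate 1 and replicate 2. KLF2, a zinc finger factor at 1.14 ± 0.031 CPM with guides and 2.04 ± 0.4 CPM without plasmid (SD, n = 2), had -0.82 with overlapping libraries, and it lost its call without the no-plasmid or the guides library of experiment 1, replicate 1.

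Of 32 genes listed as p53 targets, 23 rose and 2 fell, with a median of 0.46. HEK293T cells carry the large T antigen of a polyomavirus, which binds p53. TP53I3, an oxidoreductase, rose by 2.33 ± 0.08 (SE) from 10.4 to 13.1 CPM to 53.5 to 62 CPM, and GADD45B, a stress sensor, rose by 2.21 from 27.1 to 35.6 CPM to 125 to 176 CPM. CLCA2 rose by 2.33 and TIGAR by 1.53. MDM2, the ligase that degrades p53, rose by 0.28. The cell cycle inhibitor CDKN1A had -0.16 and the death effector BAX -0.26, and both calls were lost without pairing by experiment, that of BAX also without the libraries labelled replicate 1. Of 30 apoptosis regulators, 7 rose and 6 fell, with a median of 0.036. BAK1 rose by 0.97 and HRK by 0.64, while BMF, another activator of apoptosis, fell by 1.29 on the log2 scale.

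Genes of DNA replication mostly rose, and genes of mitosis mostly fell. Of 43 DNA replication genes, 35 rose and 3 fell, with a median of 0.38, and they took 0.968% ± 0.01 of gene counts with guides and 0.777% ± 0.014 without plasmid (SD, n = 2). The transcription factor E2F2 rose by 1.22, the licensing factor CDC6 by 1.17 and the origin subunit ORC1 by 1.02, while the cyclin CCNE1 (-0.45), the polymerase subunit POLD1 (-0.44) and the ligase LIG1 (-0.35) fell. Of 42 mitosis genes, 27 fell and 5 rose, with a median of -0.22. The centromeric histone CENPA had -0.55, the ubiquitin conjugase UBE2C -0.54, the kinase PLK1 -0.51 and the cyclin CCNB1 -0.48. The 5 that rose were the spindle proteins NUSAP1 (0.52) and CKAP2 (0.33), the securin PTTG1 (0.32) and the checkpoint genes MAD2L1 (0.22) and TTK (0.11). Of 42 ribosome biogenesis genes, 35 rose and 2 fell, with a median of 0.38, led by RRP12 with 1.26, the helicase DDX21 with 0.97 and PNO1 with 0.87. POLR1A, the largest subunit of RNA polymerase I, had -0.30, a call that was lost without the libraries labelled replicate 1.

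Mitochondrially encoded transcripts were lower with guides, by an amount that depended on the technical replicate. They took 8.31% to 8.78% of gene counts in the 4 libraries without plasmid. With guides they took 5.57% and 5.59% in the libraries labelled replicate 1 and 7.5% and 7.44% in those labelled replicate 2. Of 15 genes, 13 fell and 1, MT-CO1, rose, with a median of -0.43. From the libraries labelled replicate 1 alone the median was -0.82 with 14 lower, and from those labelled replicate 2 alone it was -0.08 with 6 lower and 2 higher. MT-CYB, a subunit of complex III, had -0.67 over all libraries, -0.99 from the libraries labelled replicate 1 and -0.39 from those labelled replicate 2. MT-CO1, a subunit of complex IV, had 0.24 over all libraries, 0.01 from replicate 1 and 0.46 from replicate 2, and its libraries overlapped. Calls of MT-CYB, MT-CO3 and MT-ND6 were lost when the guides library of experiment 1, replicate 1, was left out, and that of MT-CO1 when replicate 2 of the same group was left out.

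A test of whether the response differed by technical replicate number, added after seeing the data, called 63 of 17975 genes (0.35%). Of these, 59 had a higher value with guides in replicate 2, and 15 of the 63 were mitochondrially encoded and 8 ribosomal protein genes. What set the replicates apart was not tested. Cells with dCas9-VP160 alone held 5.14% to 5.63% mitochondrial counts in all 4 libraries. Of 48 nuclear genes of the respiratory chain, 14 rose and 18 fell, with a median of -0.025. COX5B, a subunit of complex IV, had -0.63, and UQCRFS1, the iron-sulfur subunit of complex III, rose by 0.51.

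Other metabolic lists moved little. Of 36 glycolysis and hypoxia genes, 17 rose and 11 fell, with a median of 0.093. The growth factor gene VEGFA rose by 0.93 and the enolase ENO2 by 0.90, and the oxygen sensor EGLN3 fell by 0.69 on the log2 scale. Of 34 genes of cholesterol and fatty acid synthesis, 18 fell and 6 rose, with a median of -0.14. The fatty acid synthase gene FASN fell by 0.64 on the log2 scale, while HSD17B7 rose by 0.91.

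Genes of the extracellular matrix fell. Of 36 tested, 26 fell and 3 rose, with a median of -0.48, and they took 0.225% ± 0.0091 of gene counts with guides and 0.366% ± 0.031 without plasmid (SD, n = 2). FN1, which encodes fibronectin, fell from 453 to 639 CPM to 176 to 218 CPM, a log2 fold change of -1.47 ± 0.04 (SE; edgeR adjusted p = 3.38e-21). COL3A1, a fibrillar collagen, fell by 1.82 on the log2 scale from 94.9 to 126 CPM to 26.5 to 34.2 CPM, and the gelatinase MMP2 fell by 1.68 from 61.7 to 75.7 CPM to 16.1 to 25.8 CPM. In these 3 genes the groups did not overlap. The 3 that rose were THBS2, with 3.40, the collagen COL6A3, with 0.97, and IGFBP3, with 0.53.

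Guidance cues of axons and their receptors fell too. Of 27 tested, 19 fell and 5 rose, with a median of -0.59, the lowest of the 29 lists. SLIT2, a secreted repellent, was at 411 to 496 CPM without plasmid and 114 to 133 CPM with guides, a log2 fold change of -1.88 ± 0.04 (SE; edgeR adjusted p = 4.51e-23). Its relative SLIT3 fell by 1.83 on the log2 scale, its receptors ROBO2 and ROBO1 by 1.30 and 0.86, the netrin receptor UNC5C by 1.39 and the semaphorin SEMA3C by 1.34. The third SLIT gene, SLIT1, went up by 0.72 from a low level of 3.98 ± 1.4 CPM (SD, n = 2), with overlapping libraries.

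Genes of kidney development and of the line's identity were lower in most cases, with 10 of 18 lower, 4 higher and a median of -0.58. PAX2, a factor of early kidney, had 0.262 ± 0.02 CPM with guides and 0.99 ± 0.09 CPM without plasmid (SD, n = 2), a log2 fold change of -1.89. SIX2, a factor of nephron progenitors, fell by 1.08 on the log2 scale, and LHX1 by 0.90. The neurofilament genes INA and NEFL, which this line is known to express, rose by 1.65 and 0.64. The neurofilament gene NEFM did not rise, at 1.39 CPM with guides and 1.67 CPM without plasmid.

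Beside CD34, the blood and endothelial genes did not rise as a group. Of 14 tested, CD34 included, 5 rose and 5 fell, with a median of -0.16. ESAM, an adhesion molecule of endothelium and platelets, rose by 2.27 ± 0.27 (SE) from 0.558 to 1.73 CPM to 4.13 to 5.66 CPM, against 1.98 for dCas9-VP160 alone. VWF, which encodes von Willebrand factor, rose by 0.96 to 2.52 ± 0.041 CPM (SD, n = 2), with a call lost without the libraries labelled replicate 1. The factor LMO2 fell by 1.04 on the log2 scale and the receptor KIT by 0.84.

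**Figure D5:**
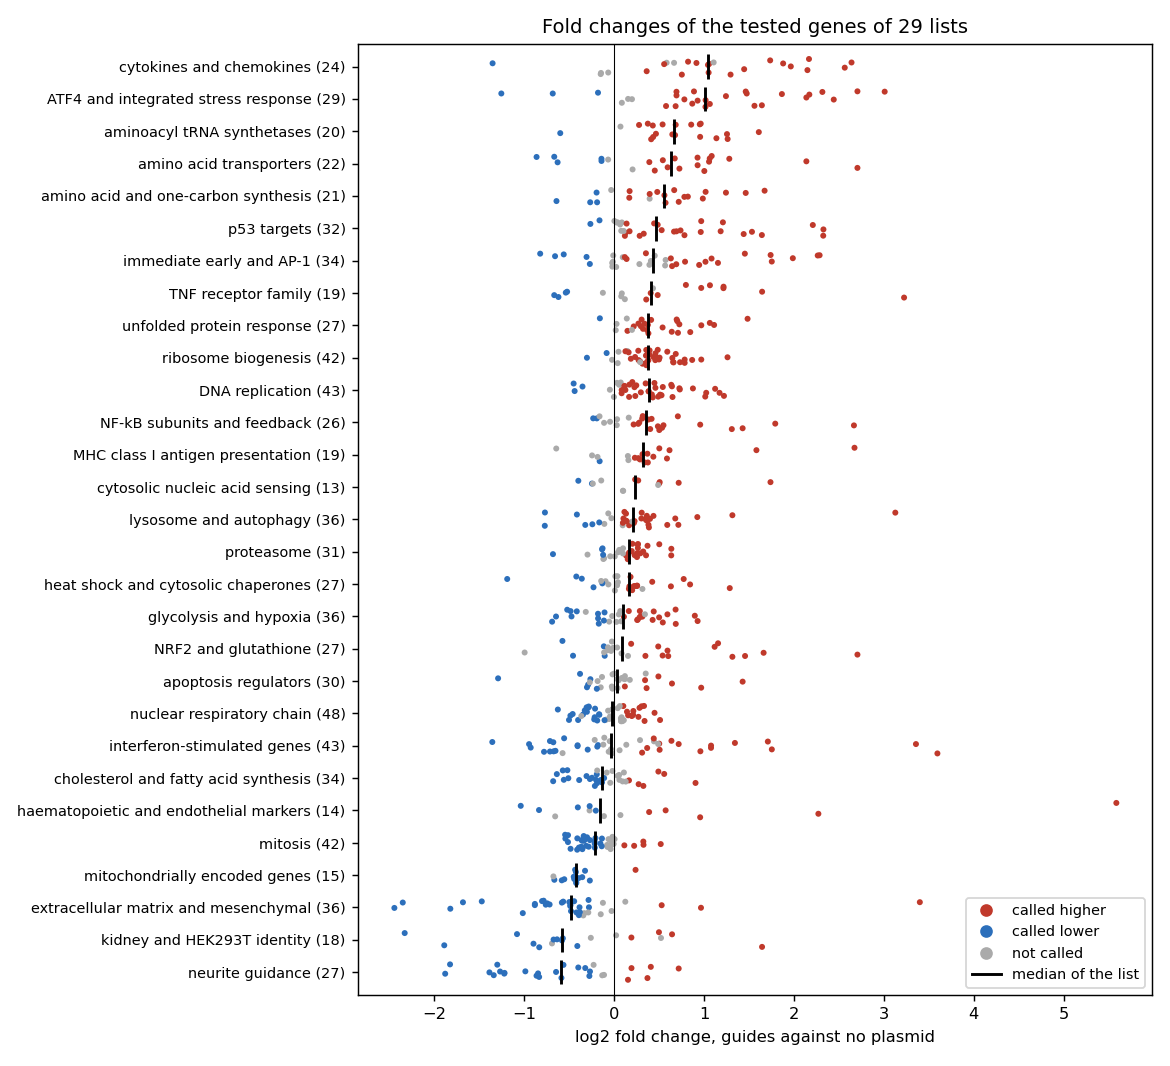
Log2 fold change with guides against no plasmid of every tested gene of 29 lists, with the number of tested genes in brackets, ordered by median. Each point is a gene, red if called higher, blue if called lower and grey if not called, and the black bar is the median, from 1.0 for the cytokine and the ATF4 lists to -0.59 for neurite guidance.

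Protein-coding genes leaned by the length of their exons. Among those with a mean of at least 5 CPM, the 2868 genes with the shortest summed exons held 1210 that were higher and 702 that were lower. The 2865 genes with the longest held 728 that were higher and 1168 that were lower. Their median log2 fold changes were 0.0932 and -0.0814. The part of this lean in the changes described above was not tested.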

How the data were processed

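RNA from HEK293T cells was made into libraries from 1 ng of total RNA with SMART-Seq HT and Nextera XT kits, per the labels. Reads were trimmed with Trim Galore 0.3.7, aligned to hg38 with STAR 2.6.0c and handled with Picard 2.17.1, per the submitters' processing notes. The counting program and annotation release were, for their part, not given in the sources used here. Raw gene counts were deposited by the authors and used as they are. The authors' deposited table of 97 genes holds, per the file headers, a mean normalised signal (baseMean), log2 fold changes with their standard errors, a test score (Wald statistic), p-values and adjusted p-values in the column style of DESeq2 (1.16.1, per the submitters' processing notes). Columns of samples outside the series numbered 0.

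Counts of technical replicates were summed per experiment. The 6 summed libraries of all 3 groups were fitted in R 4.3.3 by edgeR 4.0.16, with genes filtered by filterByExpr, TMM factors and the robust quasi-likelihood F test, with terms for experiment and group, which leaves 2 residual degrees of freedom. Benjamini-Hochberg adjustment ran over 19662 genes and a call is an adjusted p under 0.05. Standard errors are the log2 fold change divided by the root of F. Levels are TMM-normalised CPM, given as mean ± SD over 2 experiments or per library. Log2 fold changes within an experiment use a prior count of 2. Experiment numbers pair the groups because the labels say that each experiment used its own batch of cells, and same-numbered libraries deviated together (r of 0.616 to 0.631 over 12875 genes). Gene positions are from GENCODE v29 on GRCh38, matched for 56812 of 60604 identifiers; promoter sequences are RefSeq's on GRCh38.p14. The fit was tested on simulated data in which few genes changed, equally often up and down, and all groups shared the same experiment effect. In the real data 52.6% of genes were called, so that simulation does not measure the error rate here.

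Named genes are CD34, the 14 largest rises and falls among called genes with a mean of at least 5 CPM, up to 4 called members per list with the largest change, the largest in the other direction, and genes with at most 3 counts without plasmid. A further 75 genes were taken as examples after their values were seen. Not every gene so chosen is reported here. The comparison, the 29 lists and the motifs were chosen with earlier results of these data known. Counting depth limits genes near 3 counts per library, which is 0.265 to 0.427 CPM. Alternatives covered normalisation, filters, DESeq2 1.42.0, the pairing, single libraries and leaving libraries out.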

Additional observations from a re-analysis of the deposited data

Results flagged for a closer look

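In 64 groups of 4 libraries examined for the genes with the largest changes, 3 held a library that stood apart by Dixon's criterion at the 95% level, and chance flags about 1 in 20 such groups. GPNMB was at 83.9 CPM in replicate 1 of experiment 1 with guides, against 71.5 to 73.4 CPM in the other libraries of that group. IGFBP5 was at 2.72 CPM in the same library, against 3.34 to 3.42 CPM in the others with guides. RFPL4A was at 1.49 CPM in replicate 2 of experiment 2 without plasmid, against 1.99 to 2.07 CPM in the others without plasmid. In each of the 3 genes the library that stood apart stayed on its own side of the other group.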

How the results depend on the processing

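CD34 kept its call under all 23 alternatives, with log2 fold changes of 5.29 to 6.02. Without pairing by experiment (no replicate block) 3229 genes were higher and 2869 lower in place of 5245 and 5102, and CD34 stayed at 5.59. With the technical replicate number as a block on 12 single libraries the counts were 4934 and 4978. DESeq2's Wald test called 3718 higher and 2929 lower, with 544 and 404 changed by at least 1 in place of 806 and 761. Testing against an absolute log2 fold change of 1 left 223 higher and 93 lower. Other normalisations, filters and left-out libraries or experiments gave 3819 to 5550 higher and 3522 to 5408 lower. Left-out libraries within that range gave 3939 to 5221 higher and 3638 to 4946 lower. Using library totals alone changed the split to 5030 higher and 5408 lower. The count of genes whose response differed between experiments was 0 under each of 3 settings. Of 5051 values of the 222 genes so chosen, 4713 kept direction and call, 338 lost the call, 137 of them in the test against 1, and 0 turned direction. Counts of called list members stayed within 1.5 times in 1130 of 1334 cases. The causes were not tested. Depth limited genes under 1 CPM, of which 20.9% were called, against 76.6% of genes over 100 CPM.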

Other observations

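Several noncoding gene classes held more lower than higher calls with guides. Of 179 tested genes annotated as sense intronic, which lie within introns of other genes, 10 were higher and 38 lower, with a median log2 fold change of -0.322. Of 2305 antisense genes, 318 were higher and 463 lower, with a median of -0.0947, and of 1004 long intergenic noncoding genes 136 were higher and 206 lower, with a median of -0.0994. Calls in either direction were fewer in these classes, at 26.8%, 33.9% and 34.1% of genes, against 52.6% of all genes tested. Over all genes tested 26.7% were higher and 25.9% lower. Protein-coding genes had 4558 higher and 4076 lower of 14394, with a median of 0.00879. Transcribed unprocessed pseudogenes went the other way, with 55 higher and 34 lower of 272 and a median of 0.0471. Among genes of every class with a mean of 1 to 5 CPM, 572 were higher and 848 lower. Whether the reads keep their strand is unclear, as stated above, so values of sense intronic and antisense genes may include reads of the genes they overlap.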
